A study of Mus musculus with 32 samples.

Results

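The interaction of the class I histone deacetylase inhibitor CI-994 with contextual fear conditioning was measured in mouse hippocampus. It is a difference of 2 drug effects: the log2 fold change of CI-994 over vehicle in conditioned mice, minus the same fold change in mice that saw the chamber without shocks. All 16 hippocampus libraries entered it, out of 32 libraries in the series, and all genes past a filter on low counts were tested, 18261 of the 54146 listed. The 4 groups of 4 libraries were CI-994 with conditioning (HDACi-CFC), vehicle with conditioning (Veh-CFC), CI-994 with context alone (HDACi-Context) and vehicle with context alone (Veh-Context). All mice were male C57BL/6J aged 12 weeks, with no allele or transgene named. CI-994 was injected into the peritoneum at 30 mg/kg, and vehicle mice received its solvent of dimethyl sulfoxide, Kolliphor and saline. Behaviour came 1 hour after the injection, and 1 hemisphere of the hippocampus was taken from each mouse 1 hour after behaviour. Conditioned mice received 2 foot shocks of 0.2 mA, while context mice spent as long in the chamber. Every group was therefore injected and placed in a new chamber, and no home-cage group was analysed here. Mice of 1 cage shared their behaviour, so cage and behaviour cannot be told apart.

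Class I histone deacetylases remove acetyl groups from histone tails and act within corepressor complexes, and blocking them raises histone acetylation and changes transcription in both directions. Contextual fear conditioning teaches an animal to link a place with a shock, a form of memory that needs the hippocampus. Neuronal activity induces immediate early genes such as Fos and Arc, which are followed by delayed effector genes such as Bdnf. The interaction asks whether the drug changed a gene by another factor when the mouse was learning than when it was only exploring. A value of 0 means equal factors, and a value of 1 means that the ratio of CI-994 to vehicle was 2-fold larger after conditioning than after context.

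The libraries held 26026024 to 36670767 counts each. The 20 markers of hippocampal excitatory neurons summed to 1792 to 1929 CPM (counts relative to a library's total, the unit of all levels here) in HDACi-CFC, 1616 to 1773 in Veh-CFC, 1783 to 1996 in HDACi-Context and 1566 to 1700 in Veh-Context, and none of them was at 0. In this bulk tissue, fewer cells of a type and less RNA per cell cannot be told apart. Replicates 2 and 4 of HDACi-CFC stood apart from the other 14 libraries. The 14 markers of choroid plexus, the tissue that secretes cerebrospinal fluid, summed to 9841 and 9687 CPM in these libraries, against 222 and 233 CPM in replicates 1 and 3 of the same group. The same sum was 179 to 325 CPM in Veh-CFC, 294 to 887 CPM in HDACi-Context and 206 to 338 CPM in Veh-Context. Replicates 1 and 2 also differed from replicates 3 and 4 across the groups, with 6528 of the 18261 genes called, and the labels do not say what the numbers stand for. The interaction is therefore given both plainly and with a term for these 2 sets of replicates.

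No gene passed the test of the interaction. Of 18261 genes, 0 had an adjusted p under 0.05 (0% of those tested) in edgeR's quasi-likelihood test, and 0 did with the term for the 2 sets of replicates. An unadjusted p under 0.05 was given to 390 genes (2.14%), 254 with a positive interaction (1.39%) and 136 with a negative one (0.745%). With the replicate-set term these were 510 genes (2.79%), 326 positive (1.79%) and 184 negative (1.01%). DESeq2's Wald test, run on 34128 genes, called 1 gene, the non-coding 5830444B04Rik described further on. That test gave 436 genes (1.28%) an unadjusted p under 0.05. The median interaction in edgeR's fit was −0.002 over the 18261 genes.

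Many genes were called between drug and vehicle after either behaviour. After conditioning 3797 genes were called (20.8% of those tested), with 1355 higher (7.42%) and 2442 lower (13.4%) in HDACi-CFC than in Veh-CFC. After context 3612 genes were called (19.8%), with 1196 higher (6.55%) and 2416 lower (13.2%) in HDACi-Context than in Veh-Context. Drug and vehicle libraries did not overlap after conditioning for 1317 genes higher (7.21%) and 2587 lower (14.2%), and after context for 1509 higher (8.26%) and 2578 lower (14.1%). Lower genes made up 64.3% and 66.9% of the calls. With scaling to library size alone they made up 76.4% and 81.0%, and with offsets for GC content and length 60.0% and 55.7%. All 14 choroid plexus markers and 5 of 9 markers of ependymal cells were called higher after conditioning, and 0 of either after context. Without replicates 2 and 4 of HDACi-CFC, 2358 genes were called after conditioning, 725 higher and 1633 lower, and 3628 after context. The part of those 2 libraries in the calls after conditioning was not tested. The 2 effects share no library, but they come from the same fit and share its estimate of each gene's spread. In both, 2797 genes were called, which is 73.7% of the first list and 77.4% of the second. Of these, 2796 went the same way, 763 higher and 2033 lower with the drug, and 1, Ribc2, went opposite ways. Across all 18261 genes the 2 effects correlated at Pearson's r = 0.745, and at 0.839 over the 10295 genes with a mean log2 CPM of at least 3. This correlation is across genes, which are not independent replicates.

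**Figure D1:**
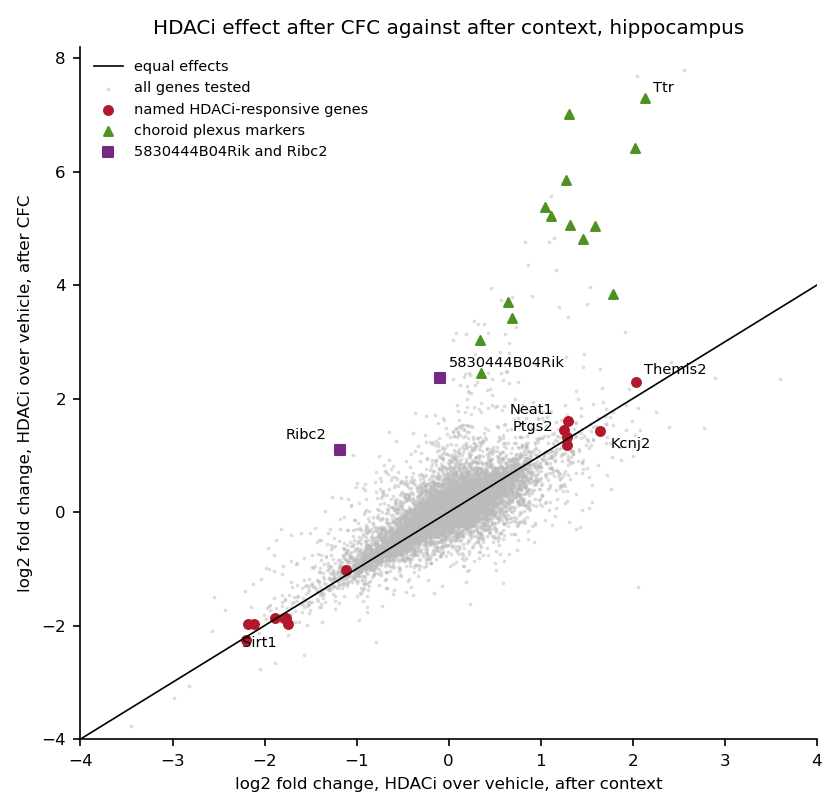
Log2 fold change of HDACi over vehicle after CFC (vertical axis) against that after context (horizontal axis) for all 18261 genes tested in hippocampus, with named genes in colour and the line of equal effects. The named responsive genes lie along the line, the choroid plexus markers and 5830444B04Rik lie above it, and Ribc2 lies at the upper left.

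The precision of the interaction sets what these data can show. The 95% interval of a gene's interaction reached a median of 0.41 to either side of the estimate on the log2 scale, or 0.29 for the 10295 genes with a mean log2 CPM of at least 3 and 0.88 for the 4671 genes under 1. For 14520 genes (79.5%) the whole interval lay within a 2-fold difference between the drug effects, and for 10342 genes (56.6%) within 1.5-fold. Among the 2796 genes that the drug changed the same way after both behaviours, 2629 (94.0%) had intervals within 2-fold and 2188 (78.3%) within 1.5-fold. For all 13590 genes with a mean log2 CPM of at least 1 these shares were 95.1% and 75.5%. Of these 2796 genes, 8 had an estimate over 2-fold. The drug changed 311 genes by 2-fold or more after both behaviours, 100 upward with a median interaction of −0.04 and 211 downward with a median of 0.01. For 105 of these 311 genes the interval lay within 1.5-fold and for 210 within 2-fold, and for the rest it reached past 2-fold. Genes called after 1 behaviour and not the other mostly had the same sign in both. Of 1000 genes called after conditioning alone, 946 (94.6%) had the same sign after context, and 155 (15.5%) had an unadjusted interaction p under 0.05. Of 815 genes called after context alone, 790 (96.9%) had the same sign after conditioning and 61 (7.49%) had such a p. Among genes called after both it was 21 (0.751%). Being called after 1 or both behaviours and the interaction's p and interval are computed from the same libraries, so these shares are a description.

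Chromatin regulators with a strong drug response had interactions near 0. Sirt1 (ENSMUSG00000020063, mm10 chromosome 10, 63319005 to 63381704, minus strand) encodes a NAD-dependent deacetylase. It had 4.92, 5.57, 5.97 and 5.57 CPM in the HDACi-CFC libraries, against 24.1, 20.4, 24.7 and 20.8 CPM in the Veh-CFC libraries. In context mice it had 4.61, 4.45, 4.73 and 4.74 CPM with HDACi, against 20.3, 19.6, 22.1 and 22.9 CPM with vehicle. All 8 drug libraries lay below all 8 vehicle libraries. The log2 effect of the drug was −1.97 after conditioning and −2.11 after context (edgeR adjusted p = 8.13e-09 and 3.49e-09), and the interaction was 0.15 (SE 0.13, 95% interval −0.14 to 0.43, unadjusted p = 0.286). Ing5 (ENSMUSG00000026283, mm10 chromosome 1, 93803965 to 93822101, plus strand) is a histone-reading subunit of acetyltransferase complexes. Its levels were 5.33, 5.06, 4.03 and 5.24 CPM in HDACi-CFC and 16.8, 19.2, 19.3 and 19.8 CPM in Veh-CFC. They were 4.65, 5.53, 5.51 and 5.61 CPM in HDACi-Context and 18.6, 18.1, 18.6 and 21.4 CPM in Veh-Context. The drug and vehicle groups again did not overlap after either behaviour, and the interaction of Ing5 was −0.10 (SE 0.14, 95% interval −0.41 to 0.20). Sin3a, a scaffold of class I deacetylase corepressor complexes, averaged 20.1 ± 1.44 CPM in HDACi-CFC and 42.7 ± 3.30 CPM in Veh-CFC, and 19.1 ± 1.33 CPM in HDACi-Context and 43.6 ± 0.802 CPM in Veh-Context (SD, n = 4 each). Its interaction was 0.09 (95% interval −0.14 to 0.32). Sirt1, Ing5 and Sin3a each overlap a gene on the other strand, and the strand setting of the counting is not given in the sources used here, so their values carry that uncertainty.

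Genes that the drug raised had intervals around 0 as well. Ptgs2 (ENSMUSG00000032487, mm10 chromosome 1, 150100031 to 150108227, plus strand) encodes the inducible prostaglandin synthase of neurons. It had 105, 98.1, 101 and 99.6 CPM in HDACi-CFC, against 51.2, 34.6, 48.2 and 34.2 CPM in Veh-CFC. After context it had 98.9, 67.5, 125 and 107 CPM with HDACi, against 42.7, 36.8, 51.2 and 42.2 CPM with vehicle. Each drug group lay above its vehicle group, and the 4 HDACi-CFC libraries fell inside the range of the HDACi-Context libraries. The effects were 1.32 and 1.29 on the log2 scale (adjusted p = 4.08e-05 and 5.18e-05), with an interaction of 0.04 (SE 0.24, 95% interval −0.48 to 0.55). Kcnj2, an inward-rectifier potassium channel, averaged 40.2 ± 5.24 CPM in HDACi-CFC and 15.7 ± 3.31 CPM in Veh-CFC, and 45.5 ± 6.78 CPM in HDACi-Context and 15.4 ± 2.18 CPM in Veh-Context (SD, n = 4 each). Its interaction was −0.22 (95% interval −0.70 to 0.25). Themis2, a signalling adaptor of immune cells, was at 2.81 to 3.43 CPM in HDACi-CFC and 0.409 to 0.817 CPM in Veh-CFC, and at 3.00 to 3.54 CPM in HDACi-Context and 0.667 to 1.25 CPM in Veh-Context. Its interaction of 0.26 had an interval of −0.37 to 0.89.

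**Figure D2:**
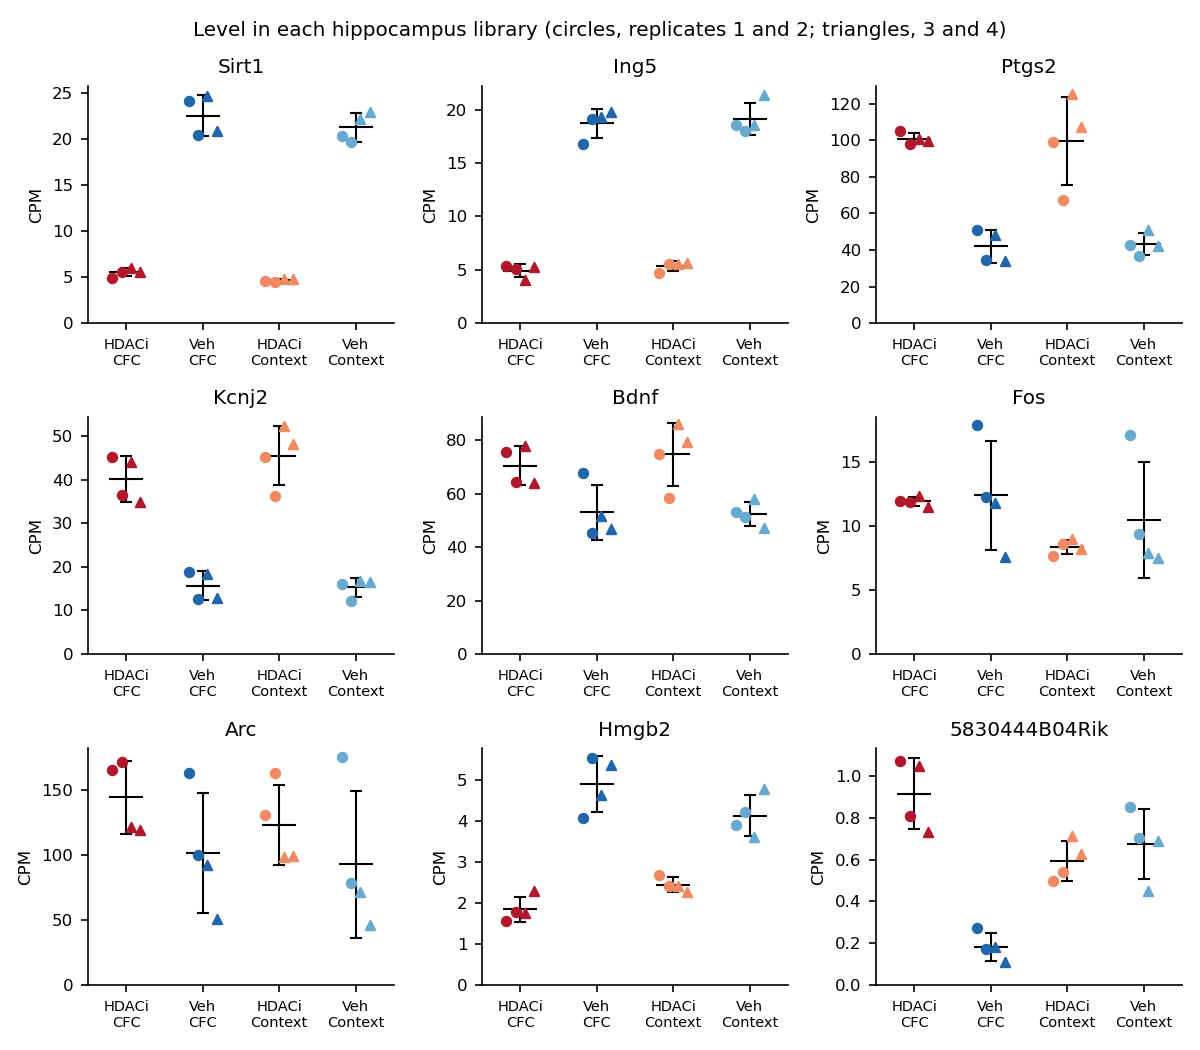
CPM of 9 genes in each of the 16 hippocampus libraries by group, with bars for the mean and SD of 4 libraries, circles for replicates 1 and 2 and triangles for replicates 3 and 4. Sirt1 and Ing5 separate drug from vehicle after either behaviour, Fos and Arc spread most in the vehicle groups, and 5830444B04Rik is lowest in the 4 Veh-CFC libraries.

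The 12 genes with the largest mean rise or fall over both behaviours had interaction estimates from −0.23 to 0.31, and all 12 intervals covered 0. They were picked from the same libraries among genes called after both behaviours, which favours similar effects, so these values are a description. Of all genes tested, only 2.14% had an unadjusted interaction p under 0.05. The genes that rose most were Themis2, Kcnj2, Neat1, Rbm20, Ptgs2 and Dbpht2. Neat1, a nuclear RNA that builds paraspeckles, had effects of 1.62 after conditioning and 1.30 after context and an interaction of 0.31 (95% interval −0.24 to 0.87). Its 2 highest HDACi-CFC values, 213 and 225 CPM, were in the 2 libraries with choroid plexus markers, against 112 and 108 CPM in the other 2, and without them its interaction was −0.24 (unadjusted p = 0.101). The part of those markers in this value was not tested. Rbm20, a splicing regulator best known from heart muscle, had an interaction of 0.19 (95% interval −0.33 to 0.71). The genes that fell most were Nfatc2ip, Pus7l, Sirt1, Zfp472, Ccne2 and Malt1. Nfatc2ip, which encodes a protein that binds NFAT factors, had effects of −2.25 and −2.20 and an interaction of −0.05 (95% interval −0.50 to 0.41). Malt1, a paracaspase of NF-kappaB signalling, had effects of −1.86 and −1.79 and an interaction of −0.08 (95% interval −0.43 to 0.28). Ccne2, which encodes a cyclin of the G1 to S transition, had the widest interval of the genes that fell, −0.81 to 0.35 around −0.23.

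**Figure D3:**
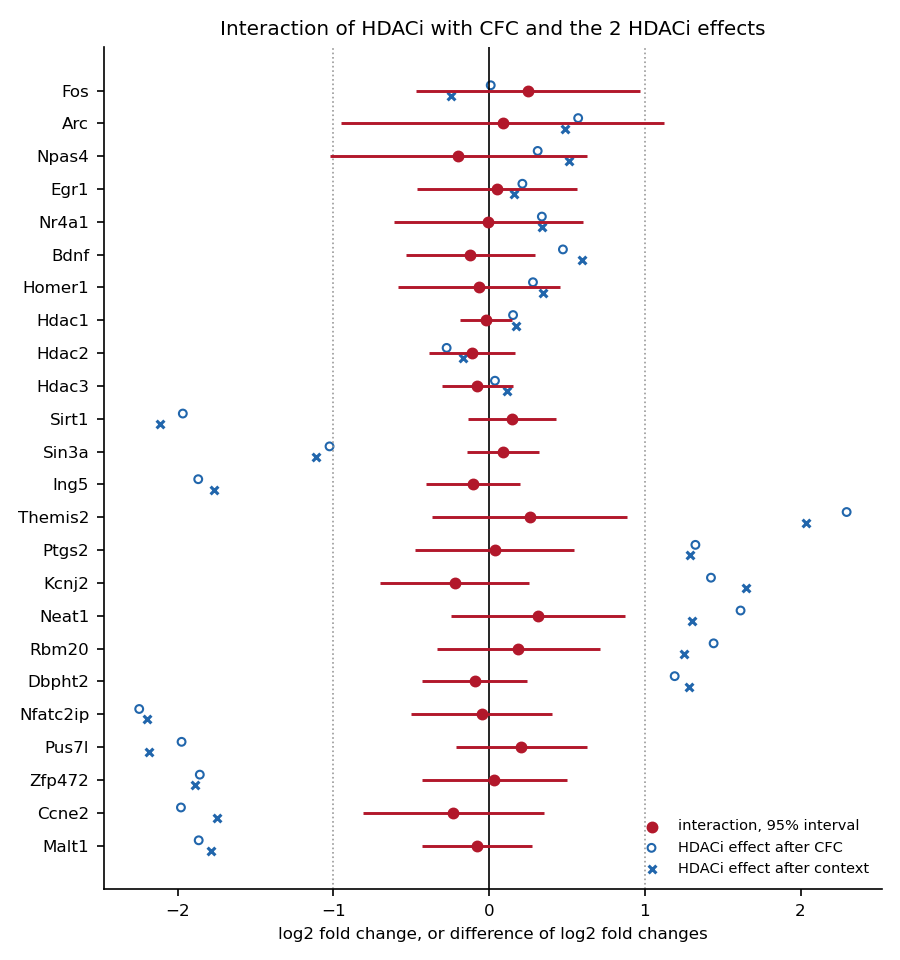
Interaction with its 95% interval (filled points and bars, difference of log2 fold changes) for 24 genes, beside the log2 fold change of HDACi over vehicle after CFC (open circles) and after context (crosses), with dotted lines at a 2-fold difference. The Sirt1 interval runs from −0.14 to 0.43 and that of Arc from −0.95 to 1.13, and every interval shown covers 0.

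Immediate early genes, the first transcripts that neuronal activity induces, were not called in the interaction. Fos (ENSMUSG00000021250, mm10 chromosome 12, 85473890 to 85477273, plus strand) encodes a subunit of the AP-1 transcription factor. It had 11.9, 11.9, 12.4 and 11.5 CPM in HDACi-CFC, against 17.9, 12.2, 11.8 and 7.61 CPM in Veh-CFC. It had 7.68, 8.57, 9.02 and 8.19 CPM in HDACi-Context, against 17.2, 9.37, 7.93 and 7.48 CPM in Veh-Context. Under the drug the conditioned libraries all lay above the context libraries, which was so for 132 of all genes (0.723%), while under vehicle the groups overlapped, with replicate 1 highest in each. The conditioning effect of Fos was 0.49 under the drug and 0.24 under vehicle (unadjusted p = 0.0604 and 0.340, adjusted p = 1 for each), and the interaction was 0.25 (SE 0.34, 95% interval −0.47 to 0.97). Arc, whose product moves to active synapses, had 165, 171, 121 and 119 CPM in HDACi-CFC, against 163, 99.7, 92.2 and 51.1 CPM in Veh-CFC. It had 131, 163, 98.3 and 99.1 CPM in HDACi-Context, against 175, 78.1, 71.7 and 46.5 CPM in Veh-Context. Replicate 1 of each vehicle group lay near the drug libraries and replicates 2 to 4 lay lower, and the interaction of Arc was 0.09 with an interval of −0.95 to 1.13. That interval of the plain fit reaches about 2-fold in either direction. With the replicate-set term the interaction of Arc was 0.07 with a narrower interval of −0.63 to 0.77. Any interaction of Arc inside that interval remains compatible with these data. Npas4, an activity-dependent factor of neurons, had an interaction of −0.20 (95% interval −1.02 to 0.63), Egr1 of 0.05 (−0.46 to 0.56) and Nr4a1, an orphan nuclear receptor, of −0.003 (−0.61 to 0.60). The replicate-set term gave intervals of −0.89 to 0.53 for Npas4, −0.42 to 0.51 for Egr1 and −0.40 to 0.39 for Nr4a1.

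Over the whole list of 28 immediate early genes, 27 were tested, 0 were called in the interaction and 0 had an unadjusted p under 0.05, with a median of 0.03 against −0.002 over all genes. For 18 of the 27 the interval lay within 2-fold. The lowest value was −0.40 at Ier2 and the highest 1.08 at Ier3. The drug effect on the list was alike after both behaviours, with 5 genes higher and 1 lower after conditioning and 6 higher and 1 lower after context, against 7.42% higher and 13.4% lower over all genes after conditioning. Btg2, an antiproliferative gene, had drug effects of 0.87 and 1.10, Jun 0.85 and 0.73, and Fosl2, an AP-1 subunit, 0.68 and 0.45, each called after both behaviours. Srf, the factor that drives many of these genes, was called lower after both, with −0.65 and −0.68.

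Among 28 delayed activity genes, 0 were called and 0 had an unadjusted p under 0.05, with a median interaction of −0.05, and 26 intervals lay within 2-fold. Bdnf, a neurotrophin of synaptic plasticity, had 75.7, 64.5, 77.8 and 63.9 CPM in HDACi-CFC, against 68.0, 45.4, 51.9 and 47.0 CPM in Veh-CFC. After context it had 74.9, 58.4, 86.2 and 79.4 CPM with HDACi, against 53.1, 51.4, 58.2 and 47.1 CPM with vehicle. Drug and vehicle did not overlap after context, and after conditioning replicate 1 of the vehicle group lay among the drug libraries. Bdnf was called higher with the drug after both behaviours (log2 effects 0.47 and 0.59, adjusted p = 0.0217 and 0.00541), and its interaction was −0.12 (95% interval −0.53 to 0.29). It overlaps the predicted gene Gm45346 on the other strand. Homer1, a postsynaptic scaffold gene, averaged 237 ± 40.3 CPM in HDACi-CFC and 204 ± 53.1 CPM in Veh-CFC, and 249 ± 40.2 CPM in HDACi-Context and 208 ± 24.6 CPM in Veh-Context (SD, n = 4 each). Its interaction was −0.06 (95% interval −0.58 to 0.46). Plk2, an activity-induced kinase, had drug effects of 0.56 and 0.70, and Rgs4, a regulator of G protein signalling, 0.71 and 0.74.

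Genes of the drug's own targets had interactions near 0 with narrow intervals. Hdac1 had an interaction of −0.02 (95% interval −0.19 to 0.15), Hdac2 of −0.11 (−0.39 to 0.17) and Hdac3 of −0.08 (−0.30 to 0.15). Of 18 deacetylase and sirtuin genes 0 had an unadjusted p under 0.05, the estimates ran from −0.11 to 0.16, and all 18 intervals lay within 2-fold. Of 36 subunits of class I deacetylase corepressors 0 had such a p, with a median of −0.02. The 31 acetyltransferases and acetyl-lysine readers had a median of −0.005 and 0 such genes, and all 31 intervals lay within 2-fold. The drug lowered 20 of these 31 genes after conditioning and 18 after context, and raised 0 after either, against 13.4% and 13.2% of all genes lowered. Among them were Ep300, an acetyltransferase and coactivator, with −0.60 and −0.70, Epc1, a subunit of the NuA4 complex, with −0.67 and −0.60, and Jade3, a subunit of HBO1 complexes, with −0.81 and −0.83. Gatad2a, a subunit of the NuRD complex, had the highest interaction of the corepressor list, 0.30, with an unadjusted p of 0.0101 when the replicate-set term was used.

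Synaptic and signalling lists had medians close to that of all genes. Glutamate receptors and postsynaptic scaffolds had a median interaction of −0.03 over 45 genes, synaptic vesicle and release genes −0.04 over 43, GABA genes −0.04 over 22 and voltage-gated ion channels −0.04 over 44, each with 0 genes at an unadjusted p under 0.05. Among 48 genes of cAMP and calcium signalling 2 had such a p, Adcy8 and Pde7b, an adenylyl cyclase and a phosphodiesterase of cAMP, both with negative interactions, the lowest being −0.30 at Adcy8. Of 21 genes of MAP kinase feedback 1 had one, Dusp14. Over the 18 pathway lists, 3 of 479 distinct genes had an unadjusted p under 0.05 (0.626%, against 2.14% of all genes). With the replicate-set term 6 of them had one, against 2.79% of all genes. Without replicates 2 and 4 of HDACi-CFC the share of all genes was 1.27%. In the plain fit 451 intervals (94.2%) of the lists lay within 2-fold, and 17 of the 18 medians lay between −0.1 and 0.1. The exception was the list of 20 glucocorticoid-responsive genes, with a median of −0.11 and 17 negative estimates, of which 0 had an unadjusted p under 0.05. Its drug effects had medians of 0.12 after conditioning and 0.26 after context. Of its 20 genes 2 were called higher after conditioning, against 7.42% of all genes, and 5 after context, against 6.55% of all genes.

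**Figure D4:**
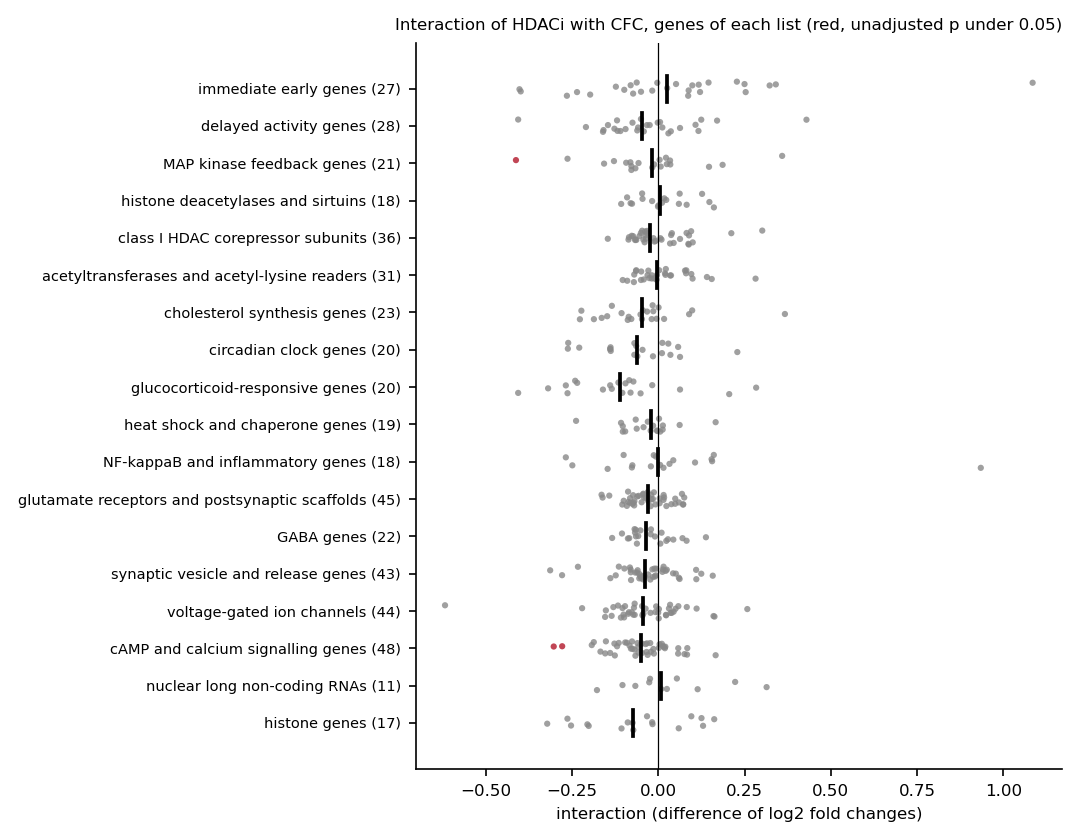
Interaction (difference of log2 fold changes) of every tested gene in 18 pathway lists, with the number of genes in brackets, a black bar at each median and red points for an unadjusted p under 0.05. The medians lie between −0.11 and 0.03, and 3 genes are red, Dusp14, Adcy8 and Pde7b.

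Marker lists of the neurons and glia of hippocampus had medians from −0.11 to 0.05. The lowest was that of hippocampal excitatory neurons, with 17 of 20 estimates negative and 0 at an unadjusted p under 0.05. Interneurons had the highest median, and the others included −0.08 for oligodendrocytes, −0.06 for astrocytes and −0.04 for microglia. Medium spiny neurons, which belong to striatum, had a median of −0.18 over 16 genes and meninges −0.19 over 12, with 1 and 0 genes at an unadjusted p under 0.05, and without replicates 2 and 4 of HDACi-CFC the median of meninges was −0.99. Choroid plexus had a median of 3.59 over 14 genes, of which 9 had an unadjusted p under 0.05 and 0 passed adjustment. Without those 2 libraries the choroid plexus median was −1.87. Ependymal cells, which line the ventricles, had a median of 0.75 over 9 genes with 2 at an unadjusted p under 0.05, and 0.34 without those libraries. Blood cells had a median of 0.95 over 5 genes, of which Hba-a2 had an unadjusted p under 0.05, and 0.32 without those libraries. Their part in the genes that follow was not tested beyond the values given.

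The 20 named genes with the smallest unadjusted p, none of which passed adjustment, fell into those that were highest in the 2 choroid-marked libraries and those that were not. Of the 254 genes with a positive interaction and an unadjusted p under 0.05, 166 (65.4%) had their 2 highest levels in replicates 2 and 4 of HDACi-CFC, against 981 (5.37%) of all genes tested. Ttr, the transport protein that choroid plexus secretes, had 10.9, 5433, 5.05 and 5237 CPM in HDACi-CFC, against 7.18, 9.10, 38.3 and 15.4 CPM in Veh-CFC. It had 59.8, 49.3, 24.9 and 355 CPM in HDACi-Context, against 98.1, 13.4, 3.87 and 3.44 CPM in Veh-Context. Its interaction was 5.17 with all libraries and −3.14 without those 2, and it was singled out after its values were seen. Enpp2, a secreted lysophospholipase, had 176, 3472, 193 and 3514 CPM in HDACi-CFC, and its interaction was 2.73 with and −0.54 without these libraries. Prlr, the prolactin receptor, had an interaction of 3.07 with and −0.40 without them. Slc2a12, a glucose transporter, had 2.66 with and −0.32 without them. Sgms2, Scube3, Frem1, Sowahc and Mtfr1 had interactions of 0.78 to 2.12 with all libraries and 0.13 to 0.26 without the 2. Mycbpap had 1.79 and 0.42, and Rassf9 1.24 and 0.71. Cfap61, a gene of motile cilia and the one with the smallest p of these 20, had 2.35, 5.64, 2.51 and 5.42 CPM in HDACi-CFC and 1.33 to 2.52 CPM in the other 12 libraries, with an interaction of 1.38 (unadjusted p = 0.00227) and 0.69 without the 2 libraries (unadjusted p = 0.0209). Of the 390 genes with an unadjusted p under 0.05, 111 kept one without these 2 libraries, and 376 kept one with the replicate-set term.

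**Figure D5:**
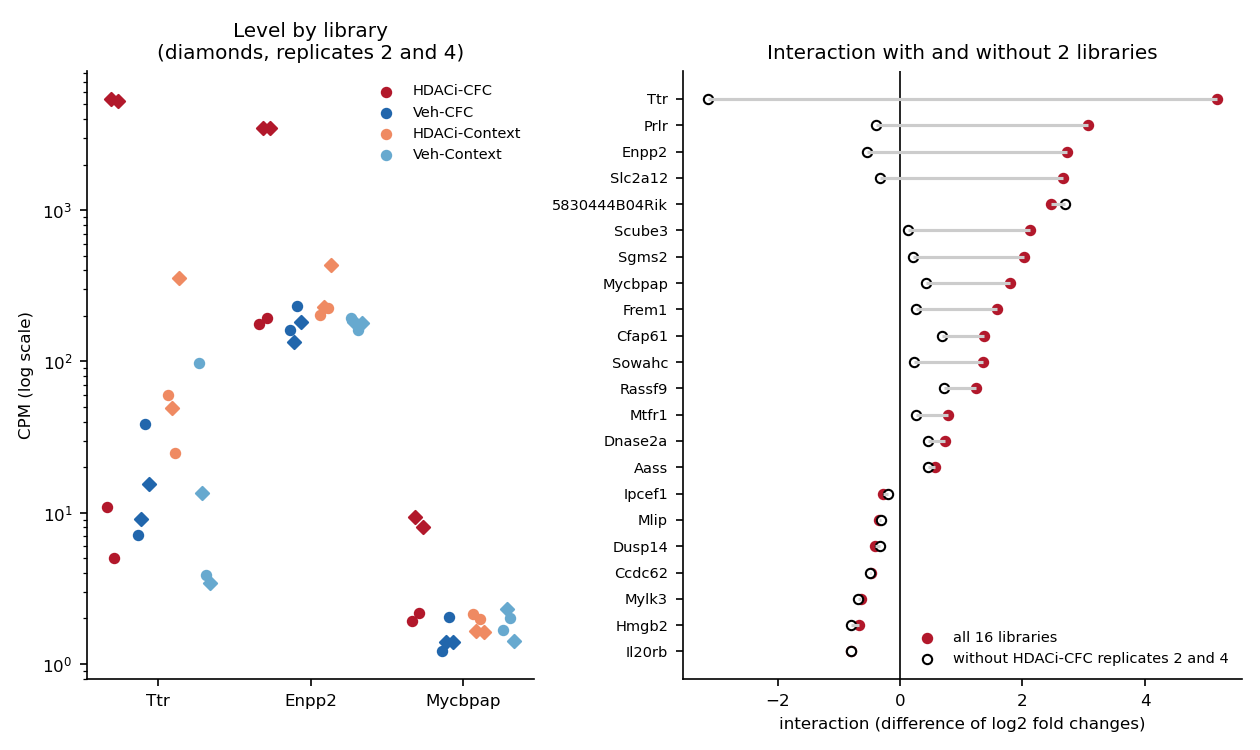
Left, CPM of Ttr, Enpp2 and Mycbpap in each library on a log axis, with diamonds for replicates 2 and 4. Right, the interaction of 22 genes from all 16 libraries (filled) and without replicates 2 and 4 of HDACi-CFC (open): the upper genes move toward or past 0, while 5830444B04Rik and the 7 genes with negative values stay near their first value.

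Hmgb2 (ENSMUSG00000054717, mm10 chromosome 8, 57511907 to 57515999, plus strand), a chromatin protein that bends DNA and is abundant in dividing progenitors, had the smallest p of those 20 genes among the ones not highest in the choroid-marked libraries. It had 1.56, 1.79, 1.75 and 2.29 CPM in HDACi-CFC, against 4.09, 5.54, 4.63 and 5.37 CPM in Veh-CFC. After context it had 2.69, 2.43, 2.42 and 2.27 CPM with HDACi, against 3.92, 4.22, 3.61 and 4.79 CPM with vehicle. It was lower with HDACi after both behaviours, with log2 fold changes of −1.35 after CFC and −0.67 after context (adjusted p = 4.59e-06 and 0.00199). The interaction was −0.67 (SE 0.19, 95% interval −1.08 to −0.26, unadjusted p = 0.00315, adjusted p = 1), −0.68 with the replicate-set term and −0.81 without replicates 2 and 4 of HDACi-CFC. It was −0.86 from replicates 1 and 2 alone and −0.49 from replicates 3 and 4 alone.

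The other named genes with a negative interaction did not pass adjustment either. Il20rb, a subunit of interleukin receptors, had drug effects of −0.29 after conditioning and 0.51 after context and an interaction of −0.80 (unadjusted p = 0.00623). Its HDACi-CFC libraries lay at 5.87 to 6.21 CPM and those of Veh-CFC at 6.02 to 9.65 CPM, and HDACi-Context at 6.30 to 11.8 CPM with Veh-Context at 5.08 to 7.24 CPM, so the groups overlapped after each behaviour. Mylk3, a myosin light chain kinase, was called with the drug after context (0.78, adjusted p = 0.00222) and was at 0.15 after conditioning (adjusted p = 0.577), with an interaction of −0.63. Its levels were 2.89 to 4.57 CPM in HDACi-CFC, 3.39 to 4.24 CPM in Veh-CFC and 3.00 to 4.61 CPM in HDACi-Context, and Veh-Context lay lower at 2.22 to 2.69 CPM. Dusp14, a phosphatase that acts on MAP kinases, had effects of 0.14 and 0.55 and an interaction of −0.41 (unadjusted p = 0.0130). Ccdc62 had an interaction of −0.47, Mlip of −0.34 and Ipcef1 of −0.29, with unadjusted p of 0.0119, 0.0111 and 0.0112. With the replicate-set term Stxbp6, a regulator of vesicle fusion, had −0.30 (unadjusted p = 0.00544) and Rgs6, a regulator of G protein signalling, −0.34 (unadjusted p = 0.00643).

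Among the positive values of the 20 named genes with the smallest p, those of Aass and Dnase2a changed least without the 2 libraries. Aass, an enzyme of lysine breakdown, had 6.28, 7.43, 7.24 and 8.71 CPM in HDACi-CFC, against 4.57, 5.37, 4.54 and 5.29 CPM in Veh-CFC. After context it had 5.42 to 6.00 CPM with HDACi, against 4.73 to 7.43 CPM with vehicle. The drug groups separated after conditioning and overlapped after context, and the interaction was 0.57 (95% interval 0.17 to 0.97, unadjusted p = 0.00780), with 0.46 without the 2 libraries (unadjusted p = 0.0463). Dnase2a, a lysosomal nuclease gene that overlaps Mast1 on the other strand, had 0.74 with and 0.46 without them (unadjusted p = 0.0113 and 0.107). With the replicate-set term Acvr2b, an activin receptor gene, had 0.66 (unadjusted p = 0.00290). Acvr2b averaged 2.06 ± 0.620 CPM in HDACi-CFC and 3.22 ± 0.479 CPM in Veh-CFC (SD, n = 4 each), and lay at 1.29 to 1.79 CPM in HDACi-Context and 2.85 to 4.94 CPM in Veh-Context. In the same fit Mest, an imprinted gene, had 0.56 and Laptm4b, a lysosomal membrane gene, 0.20, and both were highest in replicates 2 and 4 of HDACi-CFC.

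The smallest adjusted p of all genes belonged to a transcript outside the rule for named genes, singled out after its values were seen. 5830444B04Rik (ENSMUSG00000084803, mm10 chromosome 4, 155398763 to 155421704, minus strand) is annotated as a processed transcript, and no role is given for it here. It had 1.07, 0.810, 1.05 and 0.731 CPM in HDACi-CFC, against 0.273, 0.171, 0.181 and 0.109 CPM in Veh-CFC. It had 0.499, 0.540, 0.715 and 0.627 CPM in HDACi-Context, against 0.851, 0.704, 0.447 and 0.689 CPM in Veh-Context. The Veh-CFC libraries lay below all other 12 libraries, HDACi-CFC lay highest with some overlap, and the context groups overlapped. These levels are near the floor, with a mean log2 CPM of −0.76 in the fit of both regions. Few reads stand behind each value, above all in Veh-CFC. The drug effect was 2.37 after conditioning (adjusted p = 1.52e-05) and −0.09 after context, and the interaction was 2.46 (SE 0.39, 95% interval 1.64 to 3.28, adjusted p = 0.103). The adjusted p was 0.141 with the replicate-set term, 0.0397 in DESeq2's Wald test and 0.0475 without replicate 3 of Veh-Context. It was 0.0176 when the 32 libraries of both regions were fitted together. When single hippocampus libraries were left out, that larger fit kept the call only for some of them. These were replicate 3 of Veh-Context, 1 of Veh-CFC, 3 of HDACi-Context, and 2 or 4 of HDACi-CFC. From hippocampus alone the estimate was 2.69 without replicates 2 and 4 of HDACi-CFC, 2.63 from replicates 1 and 2 and 2.33 from replicates 3 and 4. It overlaps Cfap74, a gene of motile cilia on the other strand. The interaction of Cfap74 was 0.19 (95% interval −0.18 to 0.55), with drug effects of 0.19 after conditioning and −0.002 after context that did not pass. Ribc2, the gene called in opposite directions, was also found after its values were seen, at levels of 0.244 to 0.506 CPM in HDACi-CFC, 0.103 to 0.245 CPM in Veh-CFC, 0.101 to 0.231 CPM in HDACi-Context and 0.288 to 0.481 CPM in Veh-Context. Its drug effects were 1.10 (adjusted p = 0.0306) and −1.18 (adjusted p = 0.0304), and its interaction was 2.28 (unadjusted p = 0.000314, adjusted p = 1). Few reads stand behind the levels of Ribc2 as well.

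Conditioning on its own gave no call in edgeR's test. HDACi-CFC against HDACi-Context gave 0 called genes, with 775 (4.24%) at an unadjusted p under 0.05 and a smallest adjusted p of 0.778. Veh-CFC against Veh-Context gave 0, with 188 (1.03%) at such a p and a smallest adjusted p of 0.121, at 5830444B04Rik. Without replicates 2 and 4 of HDACi-CFC, 267 (1.43%) and 210 (1.12%) of 18712 genes had such a p. The counts that follow include those 2 libraries. Groups that did not overlap were seen under the drug for 132 genes higher (0.723%) and 203 lower (1.11%) after conditioning, and under vehicle for 79 higher (0.433%) and 72 lower (0.394%).

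The interaction was estimated from disjoint libraries in replicates 1 and 2 and in replicates 3 and 4. Across the 10295 genes with a mean log2 CPM of at least 3 the 2 estimates correlated at r = 0.475, against 0.897 for the drug effect after conditioning and 0.858 for the drug effect after context. Over all 17996 genes tested in both sets these were 0.260, 0.752 and 0.688. Each set holds 1 of the 2 libraries with choroid plexus markers. In striatum, the other region of the series, 0 of 19198 genes were called in the interaction (556 with an unadjusted p under 0.05). With a replicate block 2 were called, the predicted genes Gm9752 and Gm48265. Their log2 estimates there were 13.17 (SE 5198) and 16.35 (SE 4863), so neither interaction was estimated with usable precision. The difference between the interactions of the 2 regions was called for 0 genes as well, with 369 at an unadjusted p under 0.05. For 5830444B04Rik the striatum value was 0.63 (unadjusted p = 0.136), and the difference between regions was 1.84 (unadjusted p = 0.00339, adjusted p = 1). For Hmgb2 the striatum value was −0.07 and the difference −0.59 (unadjusted p = 0.215).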

How the data were processed

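RNA was read from polyadenylated RNA of 16 hippocampus and 16 striatum libraries in 4 groups of 4 per region. The deposited table holds raw read counts per gene. Per the submitters' processing notes the tools were bcl2fastq 2.20.0, STAR 2.6 and DESeq2, on the mm10 build. How reads were assigned to genes, strand included, is not given in the sources used here. Reads of overlapping genes may therefore be shared, which touches Sirt1, Sin3a, Ing5, Bdnf, Homer1, Neat1, Mlip, Ipcef1, Cfap61, Enpp2, Slc2a12, Prlr, Mest, Rgs6 and others. Of 54146 gene identifiers 54079 matched GENCODE release M21, which gave symbols and positions. The other 67 held at most 0.0264% of a library.

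For hippocampus, 1 model held the 16 libraries as 4 group means (edgeR 4.0.16 under R 4.3.3), with TMM scaling, filterByExpr and the two-sided quasi-likelihood F test. P values were adjusted by the Benjamini-Hochberg method over every gene tested, and a gene was called at an adjusted p under 0.05. The 95% intervals come from the fitted coefficient, its standard error and the gene's total degrees of freedom (prior and residual). Levels are CPM, counts scaled to the total of their library. The fit was repeated with a term for replicates 1 and 2 against 3 and 4. The regions were compared in a fit of all 32 libraries. Per the labels each library is 1 region of 1 mouse, but not whether both regions came from the same mouse, which that fit treats as independent. Alternatives were other scalings, no filter, a replicate block, offsets for GC content and length, each set of replicates alone, leaving out each library or the 2 libraries with choroid plexus markers, and DESeq2 1.42.0. Their combination with the replicate-set term was chosen after seeing the data. The script was tested on simulated data.

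The members and gene lists were chosen with earlier results of these data known. Named were 16 listed genes, the 20 with the smallest interaction p, the 6 with the largest rise and 6 with the largest fall with the drug in both effects, and the 10 with the smallest p under the replicate-set term. All but the first had a mean log2 CPM of at least 1 and no clone name. The 4 named outside this rule were 5830444B04Rik, Cfap74, Ribc2 and Ttr. Members of gene lists are named for their lowest or highest value, their role or a call.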

Additional observations from a re-analysis of the deposited data

Results flagged for a closer look

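In 10 of 212 groups of 4 libraries, 1 library lay far from the other 3 of its group for a named gene, and chance gives about 1 in 20 such groups. For Ttr the highest HDACi-Context library held 355.4 CPM against 24.9 to 59.8 CPM in the other 3, and the highest Veh-Context library held 98.11 CPM against 3.44 to 13.4 CPM. The same HDACi-Context group had 1 library at 435.8 CPM of Enpp2 against 202 to 227 CPM, and at 4.95 CPM of Sgms2 against 2.81 to 2.86 CPM. For Sin3a 1 HDACi-CFC library held 22.25 CPM against 19.3 to 19.5 CPM. For Ing5 1 HDACi-Context library was low at 4.649 CPM against 5.51 to 5.61 CPM, and 1 Veh-Context library was high at 21.38 CPM against 18.1 to 18.6 CPM. In Veh-Context, single libraries held 244.3 CPM of Homer1 against 192 to 201 CPM, 1.248 CPM of Themis2 against 0.667 to 0.722 CPM and a low 12.15 CPM of Kcnj2 against 16.1 to 16.8 CPM. No cause was tested for any of these.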

How the results depend on the processing

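In the 16-library fit the count of genes called in the interaction was 0 under nearly every setting. The exceptions were DESeq2's Wald test and the fit without Veh-Context replicate 3, which called 1 each (5830444B04Rik). Leaving out each library in turn gave 0 to 1. The fit of both regions called 5830444B04Rik too, though not without some single hippocampus libraries. Under a replicate block that fit had 3 calls, which included Gm9752 (11.33, SE 4686) and Gm48265 (14.79, SE 3.39). The mean log2 CPM of these 2 genes was −1.28 and 0.45, so log2 estimates of this size are not usable as fold changes. The unadjusted count under 0.05 was 390 at first, 397 with DESeq2 size factors, 403 with library size scaling, 578 with GC and length offsets, 353 and 208 from replicates 1 and 2 or 3 and 4 alone, 238 without HDACi-CFC replicates 2 and 4 (373 with the replicate-set term added) and 937 of 34128 genes with no filter. With a replicate block the interaction had 0 calls and 557 such genes, and the drug effects had 5419 and 5304 calls. Deviations correlated at over 0.1 in 16 of 24 same-numbered pairs (−0.062 to 0.446), 17 of 24 pairs of the other number in the same replicate set and 4 of 48 pairs across sets, and 8 of 16 libraries were closest to their own number, so the numbers were not taken as pairs. The drug effects after CFC and after context had 3797 and 3612 calls at first, 1642 and 1497 with replicates 1 and 2 alone, and 1555 and 1625 with 3 and 4 alone. The effect after CFC had 2358 calls without HDACi-CFC replicates 2 and 4. The effect after context had 5436 with GC and length offsets, and 5598 without those 2 libraries and with the replicate-set term. Leaving out single libraries gave 2969 to 3957 and 2899 to 3812 calls. Without HDACi-CFC replicates 2 and 4, with and without the replicate-set term, the drug effect after CFC turned negative for Sowahc (−0.53 and −0.53), Mtfr1 (−0.50 and −0.50), Slc2a12 (−0.30 and −0.31) and Ttr (−1.003 and −1.04). The cause of these changes was not tested. Intervals and calls are limited by 4 mice a group and, under a mean log2 CPM of 1, by depth.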

Other observations

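Genes of the newborn granule neuron lineage of the dentate gyrus were looked at after Hmgb2 had been seen, so their values are a description. Of 20 such genes 4, Hmgb2 itself among them, had an unadjusted interaction p under 0.05 (2.14% of all genes did) and 0 passed adjustment in edgeR's test, with a median of −0.10 over the list. Nhlh1, a transcription factor of young neurons, had 2.32, 2.57, 1.84 and 2.77 CPM in HDACi-CFC, against 1.60, 1.16, 1.21 and 1.25 CPM in Veh-CFC. After context it had 3.42, 2.73, 3.17 and 3.00 CPM with HDACi, against 1.14, 0.704, 0.991 and 0.689 CPM with vehicle. The drug groups lay above the vehicle groups after both behaviours, and the interaction was −0.95 (unadjusted p = 0.00156). Eomes, a factor of intermediate progenitors, had an interaction of −1.34 (unadjusted p = 0.00672), and Neurog2, a proneural factor, of −0.94 (unadjusted p = 0.00397). Eomes lay at 0.840 to 1.17 CPM in HDACi-CFC, 0.958 to 2.36 CPM in Veh-CFC, 0.675 to 1.77 CPM in HDACi-Context and 0.624 to 0.787 CPM in Veh-Context, with overlap between HDACi and vehicle after both behaviours. Without replicates 2 and 4 of HDACi-CFC the values of Nhlh1, Eomes and Neurog2 were −1.12, −1.27 and −0.87. Among other genes of the lineage, Dcx, the microtubule protein of young neurons, had −0.11, Neurod1 −0.09, Mki67, a marker of dividing cells, −0.24 and Top2a 0.05.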
